A study of Mus musculus with 16 samples.

Results

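The 35 genes described here encode enzymes of fatty acid oxidation, a pair of their regulators and further targets of the nuclear receptor PPARalpha, and they were chosen by symbol from a list of such genes. All 35 were found among the 55291 genes of the count table. All 35 passed the filter on low counts, so they are 35 of the 17831 genes tested in livers and 35 of the 18193 genes tested with tumours. Polyadenylated RNA of 16 mouse samples had been sequenced, in 8 groups of 2 libraries. The tumours have the genotype label Arid1a KO/BcatEXON and carry no time or treatment label. Arid1a/b DKO livers were taken 9 days after tamoxifen from mice given DMSO, the vehicle. Arid1a KO livers and WT livers with vehicle were taken at both 30 and 9 days after tamoxifen. Further Arid1a KO and WT livers came from mice given an agonist that the labels spell NR1L3, which is not a receptor symbol, so its target is not stated. Their sample descriptions hold the letters TC, whose meaning is not stated. The KO agonist libraries carry 30 days. The WT agonist libraries carry 9 days in their title and 30 days in their other labels, and were treated as 30-day livers. The series counts the liver time points from tamoxifen injection in all genotypes, WT included. BAF, a complex that moves nucleosomes, carries either ARID1A or ARID1B. The sources used here give no age, sex or deleted exons and name no recombinase driver; the sample descriptions of the WT livers begin with ALB, whose meaning is not stated. The series states 2 biological replicates per condition. No label ties a library to an animal, so a p-value measures the spread between libraries.

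The cell type label reads hepatocytes, but whole liver is what the design text describes. The samples were read as tissue, in which fewer cells of a type and less RNA per cell cannot be told apart. All 8 hepatocyte markers followed (among them Alb, Apob and Hnf4a) were tested, and they summed to 18432 CPM or more in each of the 16 libraries. CPM are counts scaled to a common library total, further adjusted by the trimmed mean of M values (TMM). Replicate 1 of the 30-day KO livers stood apart from replicate 2 in many of the 35 genes, and the genes called without it are named in that comparison. Libraries held 7569780 to 47768600 counts, and 3 counts corresponded to between 0.0481 and 0.362 CPM. Arid1a counts over the whole gene were 90.5 and 102 CPM in DKO livers, 87.4 and 90.1 CPM in 9-day KO livers and 72.1 and 76.99 CPM in 9-day WT livers. At 30 days they were 95.2 and 76.5 CPM in KO livers and 105 and 86.4 CPM in WT livers. The log2 fold change of Arid1a in KO over WT livers was 0.25 ± 0.18 (adjusted p = 0.75) at 9 days and -0.15 ± 0.18 (adjusted p = 0.94) at 30 days, so whole-gene counts did not separate these labels. Arid1b was lower in DKO livers, at 24.5 and 25.7 CPM against 38.03 and 52.8 CPM in WT livers, with a log2 fold change of -0.85 ± 0.28 (adjusted p = 0.044). Counts over a whole gene do not check the loss of single exons, and KO and DKO below name libraries by their labels.

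Fatty acids enter the liver cell, are joined to coenzyme A by acyl-CoA synthetases and reach the mitochondrial matrix through the carnitine shuttle, where beta-oxidation shortens them in repeated cycles. Very long and branched chains are first shortened in peroxisomes, and a side route in the endoplasmic reticulum oxidises the far end of the chain (omega-oxidation). PPARalpha is activated by fatty acids, binds DNA together with RXR at direct repeats with a spacing of 1 base (DR1 elements), and induces genes of all these routes, most strongly during fasting, when the liver turns fatty acids into ketone bodies. Fgf21 is a hormone, and Pdk4 a kinase that inactivates pyruvate dehydrogenase; both are among its best-known liver targets.

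The sequence before the gene starts is shown for the genes that carry a DR1-like motif and for the shared start region of Hadha and Hadhb, which encode the alpha and beta subunits of the mitochondrial trifunctional protein and whose levels are compared below. RefSeq promoter windows of build GRCm38.p6, each of 250 bases before to 50 bases after an annotated start, were found for 29 of the 35 genes (33 windows). Of the 33 windows, 30 held the first 20 bases of a transcript of their gene. Each window was searched on both strands for 2 copies of AGGTCA with 1 base between them, with any base allowed between the copies and overlapping matches counted once per gene. None of the 29 genes held a match with at most 1 mismatch in the 12 fixed bases, against 0.644% of the 27025 genes with a window. With at most 2 mismatches, 4 of the 29 genes (13.8%) held a match, against 4.40% of all genes with a window. In the 41-base stretches below, written 5′ to 3′ on the gene's strand, capitals mark the match. In Plin2 and Acot4 the match reads on the opposite strand. Creb3l3 has 2 windows, and its match lies in the one at a start inside the gene (chr10:81092542-81092841). The window near the 5′ end of the gene (chr10:81098823-81099122) held no match.
Plin2, chr4:86670258-86670298, minus strand, match at -225 from the start: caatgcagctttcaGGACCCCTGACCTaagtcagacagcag
Slc25a20, chr9:108662128-108662168, plus strand, match at 6 from the start: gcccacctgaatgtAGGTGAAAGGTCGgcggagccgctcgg
Creb3l3, chr10:81092774-81092814, minus strand, match at -209 from the start: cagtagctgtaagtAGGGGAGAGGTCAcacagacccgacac
Acot4, chr12:84038352-84038392, plus strand, match at -13 from the start: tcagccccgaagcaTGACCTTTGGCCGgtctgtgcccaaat
A match of letters describes the window and shows no binding. By the RefSeq starts of these windows, Hadha and Hadhb begin 273 bases apart and are read away from each other. In GENCODE M21 the starts lie closer, Hadha at chr5:30155162 and Hadhb at chr5:30155248, so the distance depends on the annotation. The RefSeq windows share 228 bases. The Hadhb window, chr5:30155003-30155302 on the plus strand, is given with those shared bases in capitals.
Hadhb: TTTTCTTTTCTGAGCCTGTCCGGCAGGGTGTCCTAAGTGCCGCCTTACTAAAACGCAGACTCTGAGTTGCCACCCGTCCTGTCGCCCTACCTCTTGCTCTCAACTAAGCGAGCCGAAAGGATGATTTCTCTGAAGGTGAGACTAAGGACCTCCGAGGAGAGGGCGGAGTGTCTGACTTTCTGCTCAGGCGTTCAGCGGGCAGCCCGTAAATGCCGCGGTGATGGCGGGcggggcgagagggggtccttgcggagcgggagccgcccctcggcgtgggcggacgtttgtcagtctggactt

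The 35 genes took between 0.632% and 1.32% of all counts of a library, the lowest share in tumour replicate 1 and the highest in 9-day WT replicate 2. Levels between genes were compared per kilobase of exon, as the mean over the 4 WT vehicle livers. On that scale Acaa2, the mitochondrial 3-ketoacyl-CoA thiolase, was highest at 721 CPM per kilobase, followed by Acaa1b, a peroxisomal thiolase, at 653 and Ehhadh, the peroxisomal bifunctional enzyme, at 333. The lowest were Acot2 at 3.10, Eci3 at 2.74, Fgf21 at 2.18 and Pdk4 at 1.49 CPM per kilobase. Ppara itself stood at 51.3 and Creb3l3, a liver transcription factor tethered in the endoplasmic reticulum, at 145. Acaa2 ranged 2.52-fold over the 16 libraries, and Acaa1b 7.13-fold.

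**Figure D1:**
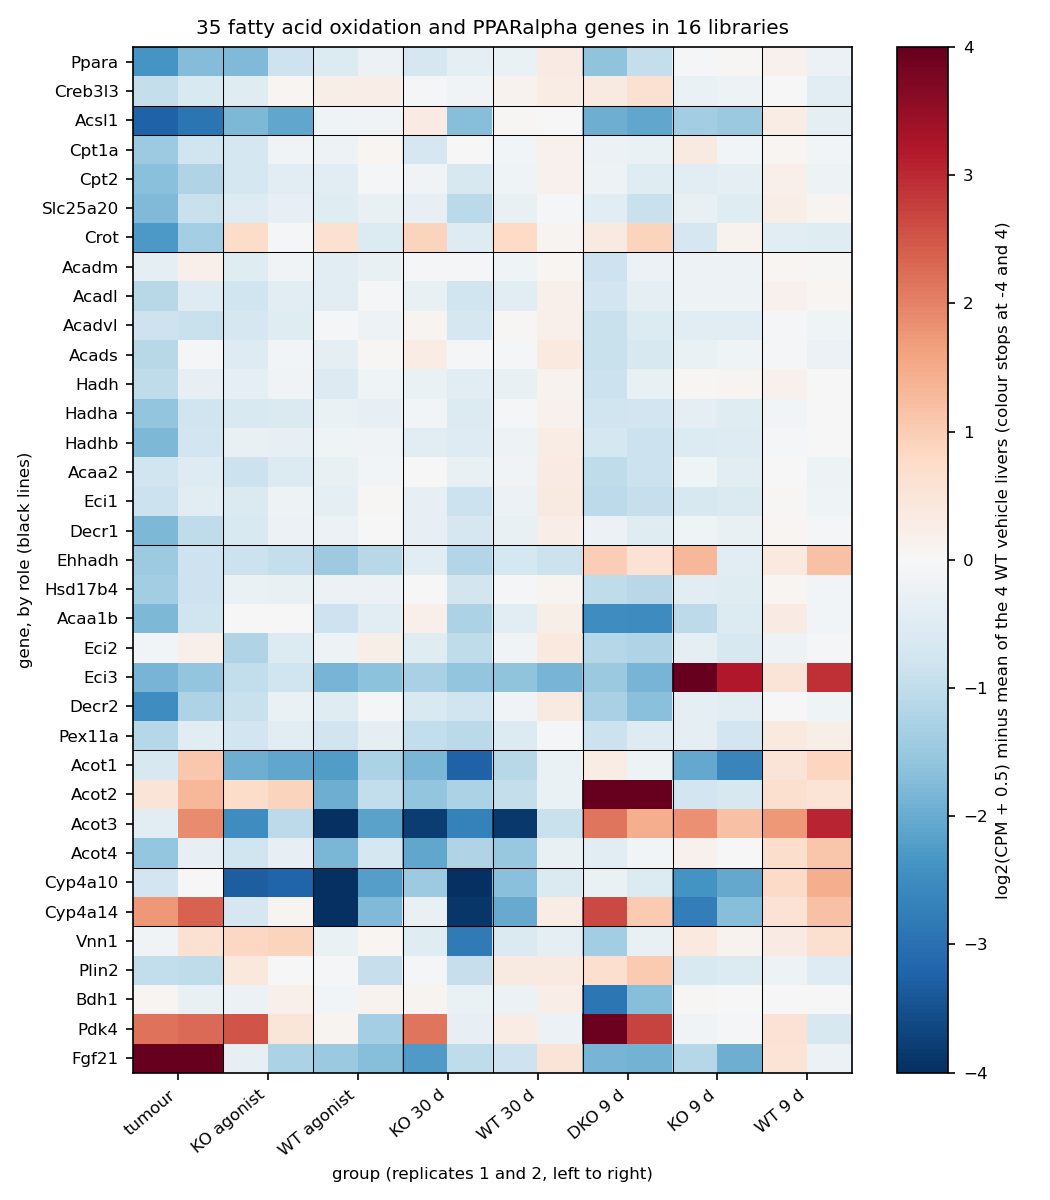
Colour shows log2(CPM + 0.5) of each of the 35 genes (rows, grouped by role) in each of the 16 libraries (columns, 2 per group), minus the mean of the 4 WT vehicle livers. Acsl1 is blue in tumours, DKO livers, agonist KO livers, 9-day KO livers and replicate 2 of the 30-day KO livers. Single genes stand out in red, such as Acot2 and Pdk4 in DKO livers and Fgf21 in tumours.

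Arid1a/b DKO livers were first set against WT livers of the same day. Below, a signed value after a gene name is a log2 fold change, with its SE after ±. Of the 35 genes, 4 rose (11.4%) and 15 fell (42.9%) in DKO livers, at an adjusted p under 0.05 in edgeR's quasi-likelihood test over all genes. Of all 17831 genes, 12.6% were called higher and 13.8% lower. The median log2 fold change of the 35 genes was -0.72, against 0.01 over all genes tested. Of 7 peroxisomal genes 6 fell, as did Acsl1, and Acot2, Pdk4, Plin2 and Creb3l3 rose. The scaling bears on these counts: DKO libraries had TMM factors of 1.31, and library totals in place of TMM shift the log2 fold changes of DKO over WT livers by 0.43. The median of the 35 is then -0.30, with 5 called higher and 7 called lower, and no gene called with TMM scaling changes sign. No share over all genes is given for library totals, so the counts of 5 and 7 cannot be read as a result about the 35 genes. Leaving out any 1 of the 4 libraries compared lowered the number called. Acaa1b, Acot2, Bdh1 and Decr2 were called in each such fit, as was Eci3, whose DKO level is near 0. These fits leave 1 library in a group, and no share over all genes is given for them.

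Ppara had 62.9 and 99.98 CPM in DKO livers, against 218 and 165 CPM in WT livers. Its log2 fold change was -1.23 ± 0.34 (adjusted p = 0.023), or -0.79 with library totals (adjusted p = 0.083), where the call is lost. Creb3l3 moved the other way, with 547 and 654 CPM in DKO livers and 436 and 314 CPM in WT livers, a log2 fold change of 0.68 ± 0.23 (adjusted p = 0.047). The groups did not overlap in either gene. Acsl1, the main liver synthetase that joins long-chain fatty acids to coenzyme A, had 357 and 330 CPM in DKO livers and 1695 and 1082 CPM in WT livers. Both DKO libraries lay far below the lower WT library, and the log2 fold change was -2.01 ± 0.49 (adjusted p = 0.014).

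Of the 4 genes of carnitine transfer only Slc25a20, the carrier that takes acylcarnitines across the inner mitochondrial membrane, was called, at 99.8 and 72.8 CPM in DKO livers against 160 and 144 CPM in WT livers and a log2 fold change of -0.81 ± 0.25 (adjusted p = 0.034). Cpt1a, the rate-limiting enzyme of the shuttle, had 517 and 506 CPM in DKO livers and 639 and 562 CPM in WT livers, with a log2 fold change of -0.23 ± 0.28 (adjusted p = 0.58). The fold changes of Cpt2 and of Crot, the peroxisomal carnitine octanoyltransferase, were -0.34 ± 0.24 and 1.11 ± 0.52, neither called. Among the 10 mitochondrial beta-oxidation genes 4 fell and none rose, and all 10 fold changes were negative. Hadha fell to 318 and 320 CPM, against 509 and 548 CPM in WT livers, with a log2 fold change of -0.72 ± 0.19 (adjusted p = 0.017). Its neighbour Hadhb had 69.3 and 62.7 CPM in DKO livers and 108 and 112 CPM in WT livers, a log2 fold change of -0.73 ± 0.17 (adjusted p = 0.011). The subunit genes that share the start region printed above fell by nearly the same factor, which was also close to the median of all genes described here. With the agonist in KO livers the pair did not move together. Hadha had 509 and 372 CPM in vehicle and 363 and 365 CPM in agonist KO livers. Hadhb had 85.9 and 79.9 CPM in vehicle and 92.8 and 90.6 CPM in agonist KO livers. A part of the shared start region was not tested. Of the transcript 50-mers of Hadhb, 57.5% also occur in another gene, mostly the pseudogene Gm13910, so its counts are uncertain. Acaa2 (-0.86) and Eci1 (-0.91), which moves double bonds of unsaturated chains, also fell on the log2 scale. The acyl-CoA dehydrogenases Acadm, Acadl, Acadvl and Acads, with Hadh and Decr1, had log2 fold changes between -0.69 and -0.36 and adjusted p from 0.073 to 0.27.

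The peroxisomal genes gave the most calls: 6 of 7 fell. Acaa1b had 223 and 220 CPM in DKO livers, against 1567 and 1166 CPM in WT livers, a log2 fold change of -2.62 ± 0.44 (adjusted p = 0.002). The DKO libraries were nearly equal and held the lowest Acaa1b levels of the 16 libraries, although 35.6% of its transcript 50-mers also occur in its paralog Acaa1a. Decr2, a peroxisomal dienoyl-CoA reductase, fell by 1.37 on the log2 scale (adjusted p = 0.0046), Hsd17b4, the D-bifunctional enzyme, by 1.04, Eci2 by 1.06 and Pex11a, which promotes peroxisome division, by 0.99. Eci3, an isomerase whose gene lies near Eci2 on chromosome 13, had 0.143 and 0 CPM in DKO livers and 2.09 and 13.3 CPM in WT livers, which differ among themselves. Its fitted log2 fold change of -6.87 ± 1.17 rests on 6 counts in DKO replicate 1 and 0 in DKO replicate 2. Eci3 had 26 to 419 counts in the 9-day WT and KO libraries and at most 16 in each other library. It thus cleared the low-count filter mainly through groups in which it is high, and it is among the 6 counted as fallen. Ehhadh was the exception, at 1661 and 1264 CPM in DKO livers and 1099 and 1888 CPM in WT livers, with a log2 fold change of -0.02 ± 0.48 (adjusted p = 0.98).

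Acyl-CoA thioesterases release free fatty acids from coenzyme A, Acot1 in the cytosol, Acot2 in mitochondria and Acot3 and Acot4 in peroxisomes. Their 4 genes lie in a row on the plus strand of chromosome 12 (GRCm38, GENCODE M21 positions), Acot2 at chr12:83987861-83993873, Acot1 at chr12:84009490-84018371, Acot4 at chr12:84038379-84048601 and Acot3 at chr12:84052144-84060402. Acot2 had 128 and 161 CPM in DKO livers and 9.89 and 9.29 CPM in WT livers, a log2 fold change of 3.92 ± 0.33 (adjusted p = 5.1e-05). In the other 14 libraries Acot2 reached at most 16.3 CPM, in tumour replicate 2. Acot1, its neighbour, had 40.7 and 28.8 CPM in DKO livers against 47.4 and 61.6 CPM in WT livers, with a log2 fold change of -0.65 ± 0.47 (adjusted p = 0.34). Acot3 (-0.69 ± 0.90) and Acot4 (-1.19 ± 0.45) were not called. Of the transcript 50-mers of Acot2, 24.6% also occur in Acot1, and of those of Acot1, 23.5% in Acot2. Reads of one could therefore be counted for the other, and the part of shared reads was not tested. The read-through gene Gm49366 and the antisense gene 4732463B04Rik overlap Acot3 and Acot4, and the sources used here do not state whether counting used the strand. The omega-hydroxylases Cyp4a10 and Cyp4a14 were not called, at -1.57 ± 0.96 and 1.15 ± 1.11. Of the transcript 50-mers of Cyp4a10, 29.8% also occur in other genes, mostly Cyp4a32, so its counts are uncertain throughout. Cyp4a14 ranged from 213 to 646 CPM within the DKO livers alone.

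Among the remaining PPARalpha targets, 2 rose and 2 fell. Pdk4 had 82.4 and 34.99 CPM in DKO livers, against 7.72 and 2.99 CPM in WT livers, a log2 fold change of 3.50 ± 0.96 (adjusted p = 0.022). Plin2, the coat protein of lipid droplets, had 580 and 763 CPM in DKO livers and 320 and 256 CPM in WT livers, with 1.23 ± 0.34 (adjusted p = 0.023) on the log2 scale. Both genes were higher in each DKO library than in each WT library. Bdh1, which makes beta-hydroxybutyrate in the last step of ketone body synthesis, fell to 50.6 and 114 CPM in DKO livers, against 368 and 371 CPM in WT livers, a log2 fold change of -2.16 ± 0.35 (adjusted p = 0.0017). It lay between 305 and 449 CPM in all 14 other libraries, tumours included. Fgf21 had 0.167 and 0.144 CPM in DKO livers and 2.97 and 1.56 CPM in WT livers, with -3.80 ± 1.004 (adjusted p = 0.019) on the log2 scale, at levels of at most 2.97 CPM. Vnn1, a pantetheinase, was not called (-1.25 ± 0.57, adjusted p = 0.13).

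**Figure D2:**
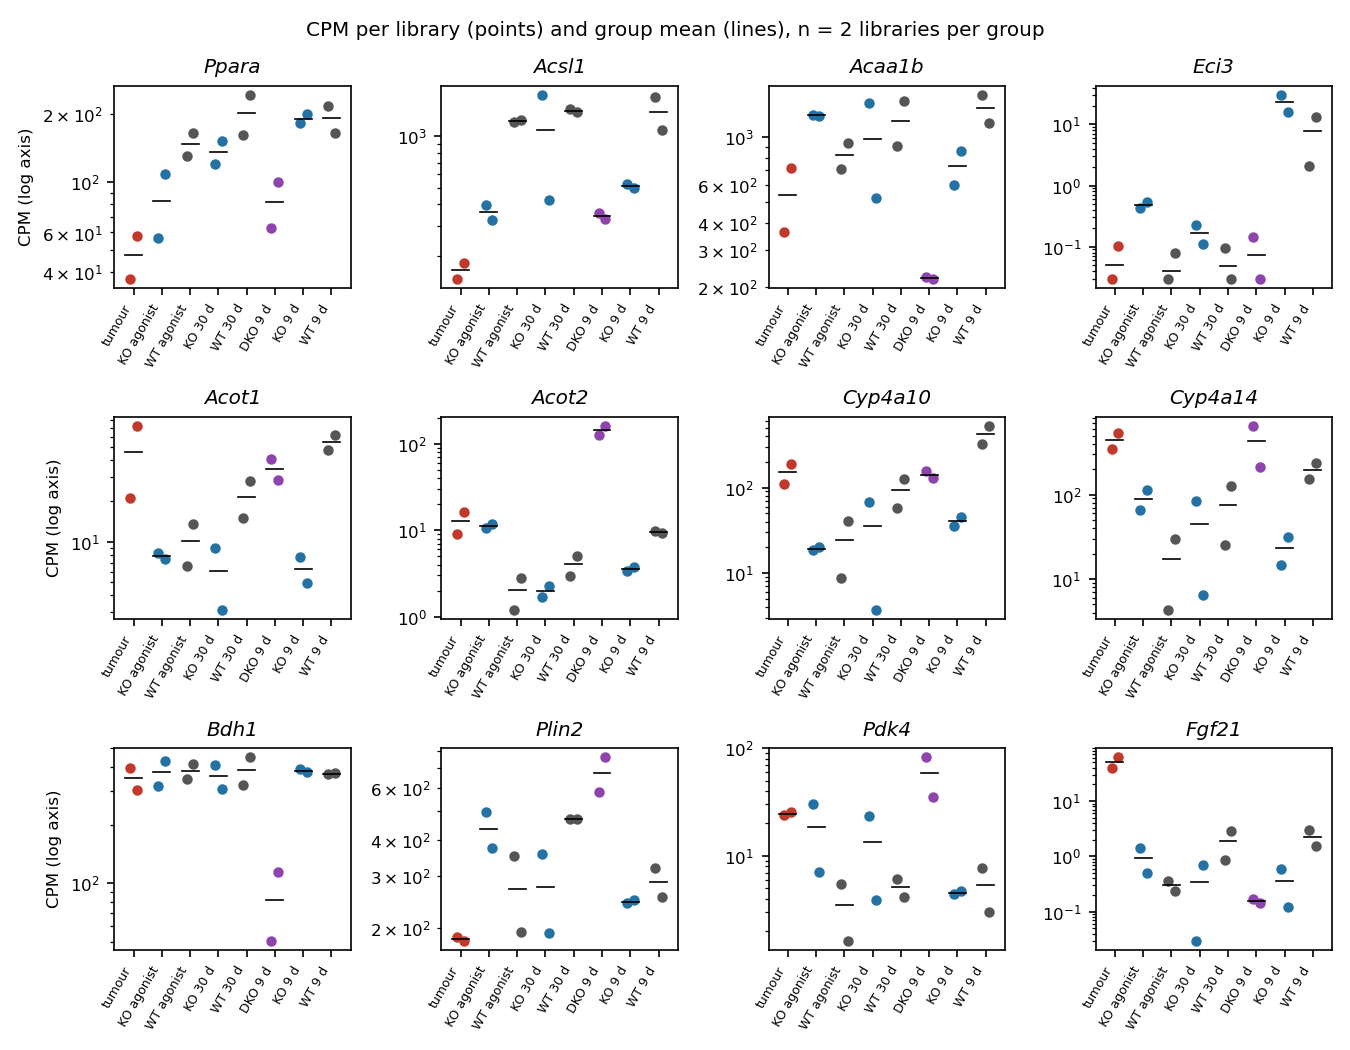
Each point is the CPM of 1 library on a log axis for 12 of the genes, and each line the mean of the 2 libraries of a group. Values of 0 are drawn at 0.03 CPM. Acot2 and Pdk4 are highest in DKO livers, Bdh1 and Acaa1b lowest there, and Fgf21 reaches 39.7 and 62.3 CPM in tumours.

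Other genes of the same pathways were counted in DKO against WT livers from lists chosen with earlier results known. Of 30 further fatty acid oxidation genes tested, 15 fell and 0 rose, with a median log2 fold change of -0.73. Those with the smallest p were Acot12, a cytosolic acetyl-CoA hydrolase (-1.82), the thiolase Acaa1a (-2.18), the hydratase Echs1 (-1.49) and Acadsb (-1.29). Of 6 further ketone body genes 4 fell and 1 rose. Among those that fell were Acat1, by 1.83, and Bdh2, by 3.39 on the log2 scale. Oxct1, which lets tissues other than the liver burn ketone bodies, was the 1 that rose (1.65 ± 0.37, adjusted p = 0.0095). Of 18 further PPARalpha targets 11 fell and 3 rose. Cidec, a lipid droplet protein, had 35.8 and 148 CPM in DKO livers and 6.19 and 5.79 CPM in WT livers (3.95 ± 0.58, adjusted p = 0.001), while Aldh3a2, a fatty aldehyde dehydrogenase (-2.98), Mgll (-1.81) and Apoa5 (-1.62) fell. Of 16 partners and co-regulators of PPARalpha 2 fell, among them Sirt1 (-0.60), and 0 rose.

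Genes that follow feeding, the clock and cell types were measured beside these changes. Of 9 feeding genes 3 fell in DKO livers, among them Pck1 (-3.35) and Tat (-4.31), and 2 rose, Irs2 (2.78) and Igfbp1 (3.12). edgeR called 0 of 13 clock genes, with 3 at an unadjusted p under 0.05 and a median of -1.09. Of 8 hepatocyte markers 4 fell, and their sum was 18432 and 18981 CPM in DKO livers against 43363 and 21332 CPM in WT livers. Of 8 stellate cell and fibroblast markers 5 rose, summing to 2217 and 1055 CPM in DKO livers and 253 and 311 CPM in WT livers. Of 8 macrophage, 6 endothelial and 6 cholangiocyte markers 2 each rose, and the erythroid list had 1 of 3 lower. The macrophage markers summed to 2042 and 1222 CPM in DKO livers and 565 and 1027 CPM in WT livers, and the endothelial to 494 and 488 CPM in DKO livers and 174 and 329 CPM in WT livers. The cholangiocyte markers summed to 426 and 158 CPM in DKO livers and 58.4 and 39.96 CPM in WT livers. Of 6 lymphocyte markers 0 were called by edgeR, with 1 at an unadjusted p under 0.05. The 4 adipocyte markers, Adipoq, Lep, Retn and Plin1, did not pass the filter and summed to at most 2.71 CPM in any library. The part of feeding, time of day or cell mix in the results was not tested.

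DKO livers were next set against KO livers of 9 days, whose label does not name Arid1b. Here 6 of the 35 genes rose and 5 fell, with 9.92% of all genes called higher and 12.1% called lower. The median log2 fold change was -0.34 and becomes 0.11 with library totals, so its sign depends on the scaling. With TMM scaling both DKO libraries lay below both KO libraries in 20 of the 35 genes (57.1%), against 32.9% of all genes. With library totals 22 fold changes were positive and 13 negative. Acot2 had 128 and 161 CPM in DKO livers and 3.41 and 3.73 CPM in KO livers, a log2 fold change of 5.34 ± 0.36 (adjusted p = 1.7e-05). Acot1 had 40.7 and 28.8 CPM in DKO livers and 7.699 and 4.93 CPM in KO livers (2.48 ± 0.51, adjusted p = 0.0069). Cyp4a14 had 646 and 213 CPM in DKO livers and 14.7 and 31.7 CPM in KO livers (4.21 ± 1.26, adjusted p = 0.036). Pdk4, Plin2 and Creb3l3 rose by log2 fold changes of 3.69, 1.45 and 0.72. Bdh1 had 50.6 and 114 CPM in DKO livers and 390 and 376 CPM in KO livers (-2.21 ± 0.35, adjusted p = 0.0017). Acaa1b (-1.72), Ppara (-1.23), Decr2 (-1.06) and Eci3, with 0.143 and 0 CPM in DKO livers and 30.1 and 16.2 CPM in KO livers, also fell. With library totals the log2 fold change of Ppara was -0.77 (adjusted p = 0.093 in edgeR's test), where its call is lost. Acsl1 was not called, at 357 and 330 CPM in DKO livers and 522 and 496 CPM in KO livers (-0.56 ± 0.48, adjusted p = 0.43). Cpt1a (-0.39) and Fgf21 (-1.03) were not called, nor were any of the 4 carnitine transfer and 10 mitochondrial genes. Leaving out any 1 of the 4 libraries compared lowered the number called. Acot2 and Bdh1 were called in each of these fits, as was Eci3, whose DKO level is near 0. These fits leave 1 library in a group. This comparison and the one with WT livers share the DKO libraries. Of the further genes, 9 of 30 in fatty acid oxidation fell and 3 rose (Acot6, Crat and Acot8), 3 of 6 ketone body genes fell and 1 rose, and 7 of 18 PPARalpha targets fell and 2 rose. Pparg, a relative of PPARalpha, rose (2.09 ± 0.42, adjusted p = 0.0065), Fgfr1 rose and Ppargc1a fell among 16 partners. Of the cell type markers, 6 of 8 for stellate cells and fibroblasts rose and 4 of 8 for hepatocytes fell.

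Loss of Arid1a alone was compared with WT livers at both days. At 9 days 1 of the 35 genes fell and 0 rose, with 0.297% of all genes called lower. The gene is Acot1, with 7.699 and 4.93 CPM in KO livers against 47.4 and 61.6 CPM in WT livers and a log2 fold change of -3.12 ± 0.52 (adjusted p = 0.027). Leaving out any of the 4 libraries compared ends this call, as does fitting all 16 libraries together. With no filter on low counts 11 of the 35 were called, against 3% of all genes. At an unadjusted p under 0.05 there were 9 of the 35 genes, each with a negative fold change, against 10.6% of all genes. Fold changes were negative for 31 of the 35, with a median of -0.34 against 0.00 over all genes. In 22 of the 35 (62.9%) both KO libraries lay below both WT libraries, against 22.0% of all genes. Acot2 had 3.41 and 3.73 CPM in KO livers and 9.89 and 9.29 CPM in WT livers (-1.42 ± 0.32, adjusted p = 0.094). Cyp4a10 had 35.4 and 44.98 CPM in KO livers and 323 and 522 CPM in WT livers (-3.39 ± 1.03, adjusted p = 0.23), and Cyp4a14 14.7 and 31.7 CPM in KO livers and 154 and 235 CPM in WT livers (-3.06 ± 1.19, adjusted p = 0.37). In both genes the groups did not overlap, and the SE exceeded 1 log2 unit. Acsl1 had 522 and 496 CPM in KO livers and 1695 and 1082 CPM in WT livers (-1.45 ± 0.48, adjusted p = 0.28). Pex11a (-0.89 ± 0.23), Hadhb (-0.49 ± 0.17), Slc25a20 (-0.57 ± 0.25) and Fgf21 (-2.77 ± 1.03) were the others at an unadjusted p under 0.05. Ppara itself had 183 and 200 CPM in KO livers and 218 and 165 CPM in WT livers (-0.002 ± 0.33, adjusted p = 1), Cpt1a a fold change of 0.16 ± 0.28 and Pdk4 of -0.19 ± 0.92.

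At 30 days 0 of the 35 genes were called in KO against WT livers by edgeR, with 0.516% of all genes called in either direction. DESeq2 called 1, Acot1, and 2.50% of the genes it gave an adjusted p. With no low-count filter edgeR called 7, against 2.78% of all genes. At an unadjusted p under 0.05 there were 9, all negative, against 9.43% of all genes. Fold changes were negative for 32 of the 35, with a median of -0.43 against 0.03 over all genes, and in 14 of the 35 (40%) both KO libraries lay below both WT libraries, against 15.2% of all genes. The KO replicates differed from each other. Replicate 2 lay below both WT libraries in 29 of the 35 genes and above both in 1. Replicate 1 lay below both in 16, above both in 5 and between them in 14. Over all genes the share below both WT libraries was 31.8% for replicate 1 and 34.2% for replicate 2. Acsl1 had 1731 and 425 CPM in KO livers and 1440.4 and 1375 CPM in WT livers, Acaa1b 1437 and 523 CPM in KO livers and 912 and 1476 CPM in WT livers, and Cyp4a10 67.9 and 3.76 CPM in KO livers and 58.5 and 127 CPM in WT livers. In each of these genes KO replicate 1 was within or above the WT range or next to it, and replicate 2 below it. Without KO replicate 1, Acsl1 and Vnn1 were called. That fit leaves 1 library in the group, and no share over all genes is given for it. Acot1 had 9.02 and 3.14 CPM in KO livers and 15.05 and 27.9 CPM in WT livers (-1.89 ± 0.51, adjusted p = 0.18), the smallest p of the 35. Next were Pex11a (-0.74 ± 0.23), Hadhb (-0.54 ± 0.17), Decr2 (-0.83 ± 0.26) and Eci2 (-0.87 ± 0.28). Ppara had 120 and 152 CPM in KO livers and 162 and 243 CPM in WT livers (-0.57 ± 0.33, adjusted p = 0.7). Cpt1a (-0.33 ± 0.28), Pdk4 (1.38 ± 0.92) and Fgf21 (-2.15 ± 0.98) were not called either. The clock genes summed to 517 and 1442 CPM in the 30-day KO livers and 822 and 1885 CPM in WT livers, lower in replicate 1 of both groups, and the part of time of day was not tested. Crot was likewise higher in replicate 1 than in replicate 2 of each of the 4 groups taken at 30 days.

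**Figure D3:**
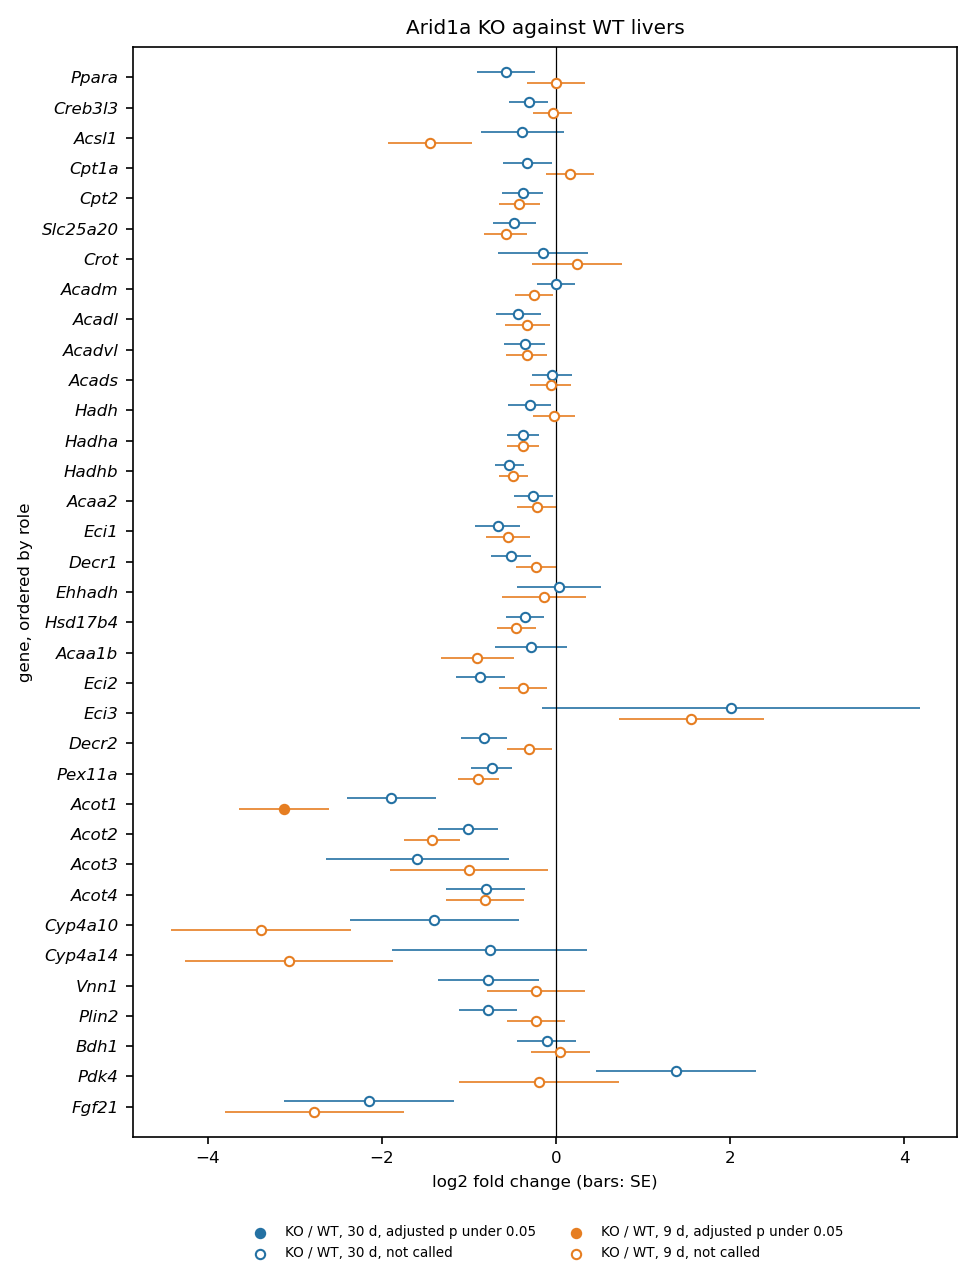
Points are log2 fold changes of KO over WT livers for the 35 genes, in blue at 30 days and in orange at 9 days, with bars of 1 SE, and filled points are called at an adjusted p under 0.05. Most points lie left of 0 at both days, and only Acot1 at 9 days is filled.

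Of the further genes, Aldh3a2 was called among 18 PPARalpha targets at 30 days, with 75.3 and 35.5 CPM in KO livers and 331 and 580 CPM in WT livers (-3.05 ± 0.37, adjusted p = 0.0073). Pparg was called among the partners at both days, with 0.799 and 1.68 CPM in KO livers and 8.05 and 15.2 CPM in WT livers at 30 days (-3.13 ± 0.46, adjusted p = 0.018), and 1.78 and 3.29 CPM in KO livers and 17.04 and 13.5 CPM in WT livers at 9 days (-2.56 ± 0.43, adjusted p = 0.027). Pparg encodes the PPAR of fat cells, and all 4 adipocyte markers were near 0 as given above. None of 30 further fatty acid oxidation genes, 6 ketone body genes, 9 feeding genes and 13 clock genes was called at either day by edgeR, nor was any cell type marker. At an unadjusted p under 0.05 there were 3 fatty acid oxidation, 2 ketone body, 2 feeding and 0 clock genes at 30 days, and 8, 1, 0 and 0 at 9 days in the same order.

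The time points were then compared within a genotype, and 0 of the 35 genes were called by edgeR in either, with 0.0224% of all genes called in WT and 0.0112% in KO livers. DESeq2 called 4 of the 35 in WT and 3 in KO livers, against 1.75% and 0.720% of the genes it gave an adjusted p. With all genes kept, whatever their counts, edgeR called 10 in WT and 8 in KO livers, against 2.77% and 2.08% of all genes. At an unadjusted p under 0.05 there were 8 in WT and 7 in KO livers, against 9.09% and 6.90% of all genes. The 4 thioesterase genes all had lower values at 30 days in WT livers, with log2 fold changes of -4.29 ± 1.04 for Acot3, -1.70 ± 0.46 for Acot4, -1.34 ± 0.48 for Acot1 and -1.22 ± 0.32 for Acot2. Acot3 had 0.863 and 10.1 CPM at 30 days and 64.6 and 162 CPM at 9 days in WT livers. In KO livers it had 0.914 and 2.55 CPM at 30 days and 69.3 and 44.5 CPM at 9 days (-4.89 ± 1.11, adjusted p = 0.38). In both genotypes the time points did not overlap in this gene. Ehhadh had 517 and 468 CPM at 30 days and 1099 and 1888 CPM at 9 days in WT livers (-1.60 ± 0.49, adjusted p = 0.32). Eci3 was nearly absent at 30 days, with 1 count in both WT libraries together against 445 at 9 days, a level 329-fold lower (95% counting interval 58.8 to 13037). In KO livers it had 5 counts at 30 days and 811 at 9 days, 153-fold lower (65.1 to 471). These intervals cover counting error only. The 9-day WT livers themselves differed, at 2.09 and 13.3 CPM. Ppara (0.08 ± 0.33), Cpt1a (0.06 ± 0.28), Pdk4 (-0.04 ± 0.92) and Fgf21 (-0.20 ± 0.88) were not called in WT livers, nor in KO livers (-0.49 ± 0.33, -0.43 ± 0.28, 1.53 ± 0.92 and 0.43 ± 1.09 in the same order). Alas2, an erythroid gene, was the 1 cell type marker called between the times, higher at 30 days in both genotypes. The change over time was not shown to differ between genotypes: in edgeR's test of that difference 0 of the 35 reached an unadjusted p under 0.05, against 1.81% of all genes, and DESeq2 called 0, against 0.00561% of all genes. Without the filter on low counts 2 were called, Cyp4a14 and Cyp4a10, against 0.445% of all genes.

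Livers of mice given the agonist were compared with vehicle livers of the same genotype. In WT livers 0 of the 35 genes were called by edgeR, with 0.0280% of all genes called, and DESeq2 also called 0, against 0.623% of all genes. At an unadjusted p under 0.05 there were 3, Acot2, Fgf21 and Plin2, all negative, against 3.66% of all genes. Without the filter on low counts 5 were called (Cyp4a14, Cyp4a10, Fgf21, Acot1 and Acot3), against 1.16% of all genes. With the 9-day WT livers as vehicle Acot2 was called, against 0.336% of all genes. Fold changes were negative for 32 of the 35, with a median of -0.30 against 0.00 over all genes, and in 11 (31.4%) both agonist libraries lay below both vehicle libraries, against 14.1% of all genes. The agonist libraries differed: replicate 1 lay below both vehicle libraries in 27 of the 35 genes and replicate 2 in 13, against 32.9% and 31.3% of all genes. Acot2 had 1.21 and 2.84 CPM in agonist and 2.97 and 5.08 CPM in vehicle WT livers (-0.91 ± 0.35, adjusted p = 1). Plin2 had 352 and 194 CPM in agonist and 471 and 471 CPM in vehicle WT livers (-0.79 ± 0.33, adjusted p = 1), and Fgf21 0.362 and 0.2398 CPM in agonist and 0.863 and 2.904 CPM in vehicle WT livers (-2.76 ± 1.07, adjusted p = 1). Ppara (-0.45 ± 0.33), Cpt1a (-0.10 ± 0.28) and Pdk4 (-0.62 ± 0.97) were not called. In the lists of further pathway genes, partners, feeding and clock genes edgeR called 0 in WT livers, with 1 fatty acid oxidation gene and 1 feeding gene at an unadjusted p under 0.05.

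In KO livers 1 of the 35 genes, Acot2, was called higher with the agonist, with 0.550% of all genes called higher. Acot2 had 10.7 and 11.8 CPM in agonist and 1.71 and 2.26 CPM in vehicle KO livers (2.46 ± 0.34, adjusted p = 0.011). This call is lost when only these 4 libraries are fitted. Leaving out the low-count filter gave 6 calls among the 35, against 3.99% of all genes. Fold changes were positive for 21 and negative for 14 of the 35, with a median of 0.08, and with library totals positive for 27 and negative for 8, with a median of 0.27. Vnn1 had 105 and 109 CPM in agonist and 42.3 and 7.98 CPM in vehicle KO livers (2.13 ± 0.59, adjusted p = 0.15), where the vehicle libraries differ among themselves. Acsl1 had 399 and 325 CPM in agonist and 1731 and 425 CPM in vehicle KO livers (-1.57 ± 0.49, adjusted p = 0.19), so that 1 vehicle library was close to the agonist libraries and the other was not. Ppara (-0.71 ± 0.34), Cpt1a (-0.09 ± 0.28), Pdk4 (0.49 ± 0.88) and Fgf21 (1.06 ± 0.999) were not called. Beside these, Aldh3a2 rose to 396 and 397 CPM in agonist livers, against 75.3 and 35.5 CPM in vehicle KO livers (2.85 ± 0.37, adjusted p = 0.0088). Pparg had 34.5 and 35.2 CPM in agonist and 0.799 and 1.68 CPM in vehicle KO livers (4.70 ± 0.48, adjusted p = 0.0033). The cell type marker called beside them was Alas2, which was lower in agonist livers.

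Under the agonist, KO livers had 1 of the 35 genes higher than WT livers and 0 lower, with 3.05% of all genes called higher. Without the filter on low counts 9 of the 35 were called, against 7.28% of all genes. With the replicate number as a block in a fit of the 30-day livers alone 3 were called, Acot2, Pdk4 and Ppara, against 9.19% of all genes. In the fit as designed the gene was again Acot2, with 10.7 and 11.8 CPM in KO and 1.21 and 2.84 CPM in WT agonist livers (2.37 ± 0.34, adjusted p = 0.0061). Acsl1 had 399 and 325 CPM in KO and 1214 and 1247 CPM in WT agonist livers without a call (-1.76 ± 0.49, adjusted p = 0.065), although the groups lay far apart. Ppara (-0.83 ± 0.34), Cpt1a (-0.32 ± 0.28), Pdk4 (2.50 ± 0.96) and Fgf21 (1.68 ± 1.09) were not called. The median of the 35 was -0.05 and becomes 0.17 with library totals, which shift this comparison by 0.23 and the agonist effect in KO livers by 0.20. The test of whether the agonist effect differs between genotypes called 0 of the 35, with 0.00561% of all genes called, and DESeq2 called 1, Acot2, against 0.803% of the genes it gave an adjusted p. Without the filter on low counts 9 were called, against 1.45% of all genes, and with the 9-day WT livers as vehicle 1, Acot2, against 0.931%. The replicate block in the 30-day livers alone called 0, against 0.0251% of all genes. Acot2 had the smallest p of the 35 in it, with a difference of log2 fold changes of 3.37 ± 0.49 (adjusted p = 0.078), KO minus WT. It was -0.26 ± 0.47 for Ppara, 0.01 ± 0.40 for Cpt1a, 1.12 ± 1.31 for Pdk4 and 3.83 ± 1.47 for Fgf21. At an unadjusted p under 0.05 there were 4, Acot2, Plin2, Fgf21 and Acot4, against 5.58% of all genes. Among further genes under the agonist, Cyp4a31 (3.95 ± 0.89, adjusted p = 0.031) was higher and Acadsb (-0.89 ± 0.19, adjusted p = 0.028) and Fgfr1 (-1.95 ± 0.36, adjusted p = 0.015) were lower in KO than in WT livers. Of 8 stellate cell and fibroblast markers 2 were higher in KO agonist livers, at a sum of 718 and 377 CPM against 257 and 241 CPM in WT agonist livers, while Spp1 was higher and Cyp2e1 and Alas2 were lower, and the part of these cells was not tested. The agonist comparisons share libraries with each other and with the comparison of vehicle livers at 30 days.

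**Figure D4:**
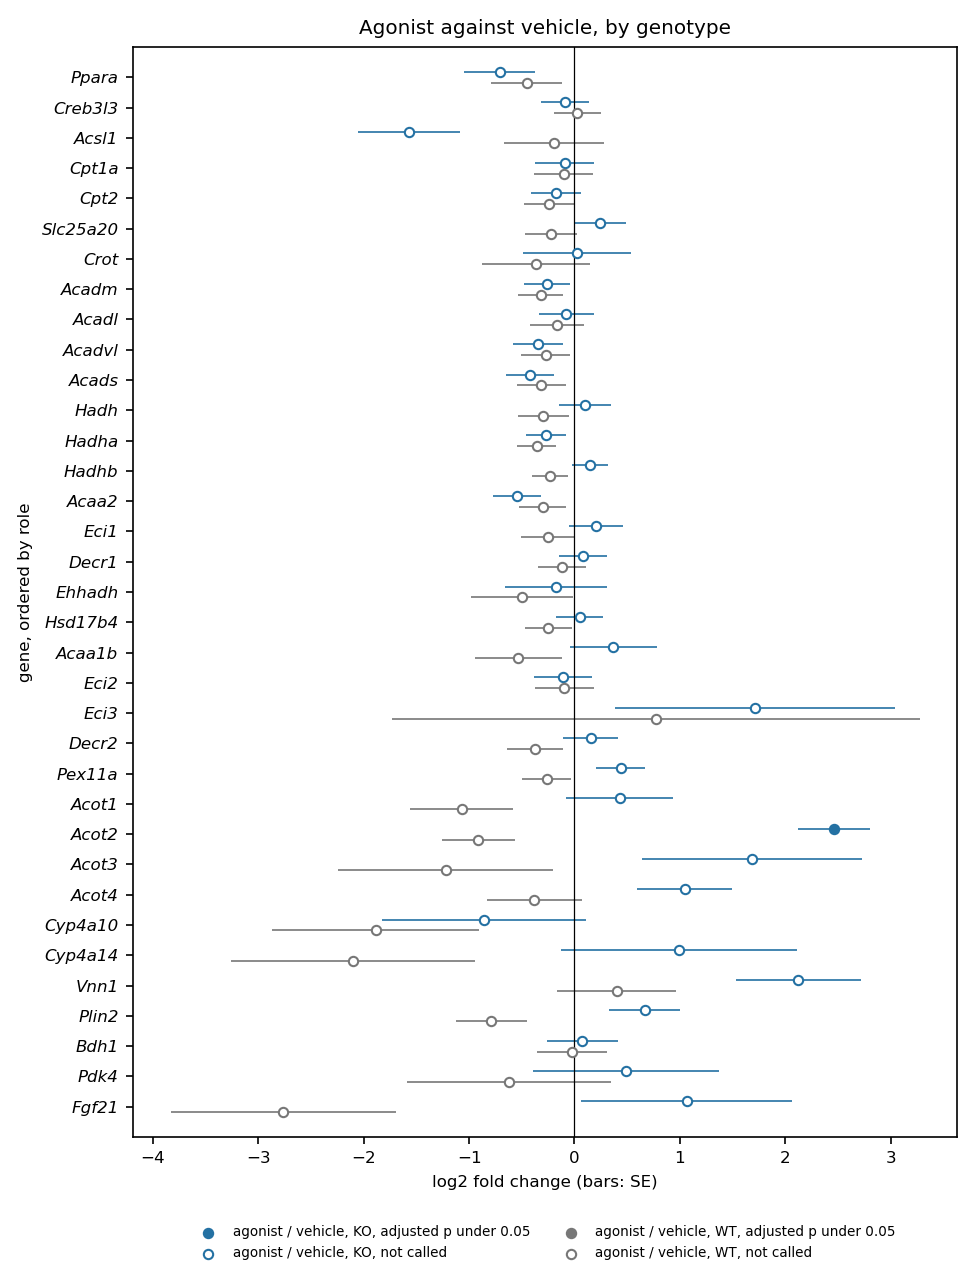
Points are log2 fold changes of agonist over vehicle livers for the 35 genes, in blue for KO and in grey for WT mice, with bars of 1 SE. Acot2 in KO livers is the 1 filled point (adjusted p under 0.05); most WT points lie left of 0.

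Tumours were set against vehicle WT and KO livers, each the equal mean of the 30-day and 9-day groups. Against WT livers 18 of the 35 genes fell (51.4%) and 3 rose (8.57%), with 16.1% of all genes called lower and 20.5% called higher. The median log2 fold change was -0.79, against 0.02 over all genes. Against KO livers 12 fell (34.3%) and 5 rose (14.3%), with 15.2% of all genes called lower and 18.0% called higher, and the median was -0.48, against a median near 0 over all genes. Ppara, Creb3l3, Acsl1, Cpt1a, Cpt2, Crot, Hadha and Hadhb fell in both comparisons, and Fgf21 and Acot2 rose in both. Both comparisons share the tumour libraries. With library totals the medians are -0.59 and -0.26, and no called gene changes sign. The tumours carry no time point and no treatment label, so tumour state, time and treatment cannot be told apart.

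Ppara had 37.5 and 57.96 CPM in tumours, the lowest levels but for 1 agonist KO library, against 162 and 243 CPM in 30-day and 218 and 165 CPM in 9-day WT livers. Its log2 fold change was -2.04 ± 0.33 (adjusted p = 0.00073) over WT and -1.75 ± 0.33 (adjusted p = 0.002) over KO livers. Creb3l3 had 222 and 283 CPM in tumours, -0.77 over WT and -0.60 over KO livers on the log2 scale. In DKO livers the same gene was higher than in WT livers. Acsl1 had 148 and 183 CPM in tumours, the lowest of the 16 libraries, with -3.07 ± 0.47 (adjusted p = 0.00047) over WT and -2.16 ± 0.45 (adjusted p = 0.0035) over KO livers. Cpt1a had 223 and 348 CPM in tumours, against 562 to 688 CPM in the 4 WT vehicle livers, with -1.10 ± 0.28 (adjusted p = 0.0095) over WT and -1.02 ± 0.28 (adjusted p = 0.015) over KO livers. Cpt2, the inner membrane partner of Cpt1a, had 66.8 and 93.3 CPM in tumours (-1.44 ± 0.24, adjusted p = 0.00072 over WT livers). Crot had 114 and 221 CPM in tumours and at least 352 CPM in each liver library (-1.76 ± 0.50, adjusted p = 0.016 over WT livers). Slc25a20 fell over WT livers (-1.26 ± 0.28, adjusted p = 0.0042) and missed the threshold over KO livers (-0.74 ± 0.27, adjusted p = 0.053).

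Of the 10 mitochondrial genes 6 fell over WT livers and 3 over KO livers. Hadha had 184 and 317 CPM in tumours (-1.13 ± 0.23, adjusted p = 0.0026 over WT and -0.75 ± 0.22, adjusted p = 0.022 over KO livers). Hadhb had 32.5 and 66.8 CPM in tumours (-1.20 ± 0.25, adjusted p = 0.0029 over WT and -0.69 ± 0.24, adjusted p = 0.044 over KO livers). Its fall was close to that of Hadha, and a part of the shared start region was not tested. Decr1 (-1.37), Acadvl (-0.85), Acadl (-0.79) and Acaa2 (-0.64) completed the 6, and Decr1 the 3. Acadm, the medium-chain dehydrogenase, had 355 and 542 CPM in tumours and a fold change of -0.06 ± 0.22 over WT livers. Acads, Hadh and Eci1 lay at -0.51, -0.64 and -0.63 without a call.

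Of the 7 peroxisomal genes 4 fell over WT livers, Decr2 (-1.74 ± 0.34, adjusted p = 0.002), Hsd17b4 (-1.07 ± 0.23, adjusted p = 0.0037), Acaa1b (-1.24 ± 0.41, adjusted p = 0.033) and Pex11a (-0.77 ± 0.24, adjusted p = 0.025). Over KO livers Decr2 (-1.18), Hsd17b4 (-0.67) and Eci3 fell and Eci2 rose (0.67 ± 0.24, adjusted p = 0.048). Eci3 had 2 counts in both tumours together and 816 in the 4 KO livers, 157-fold lower (95% counting interval 43.3 to 1297). The KO level came from the 9-day livers, so it rests on 1 time point. Ehhadh had 307 and 473 CPM in tumours and was not called (-1.13 ± 0.44 over WT livers).

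Fgf21 had 39.7 and 62.3 CPM in tumours and at most 2.97 CPM in each of the 14 livers. Its log2 fold change was 4.61 ± 0.63 (adjusted p = 0.00022) over WT and 7.07 ± 0.72 (adjusted p = 4.1e-05) over KO livers. Acot2 had 9.02 and 16.3 CPM in tumours (1.03 ± 0.30, adjusted p = 0.018 over WT and 2.24 ± 0.30, adjusted p = 0.00025 over KO livers), far below its level in DKO livers. Acot1 had 21.2 and 71.7 CPM in tumours and rose over KO livers (2.95 ± 0.49, adjusted p = 0.00091), with a value of 0.45 ± 0.48 (adjusted p = 0.5) over WT livers. Cyp4a14 had 346 and 538 CPM in tumours and also rose over KO livers (3.78 ± 0.90, adjusted p = 0.0078 over KO and 1.87 ± 0.88, adjusted p = 0.12 over WT livers). Whether these effects differ between the KO and WT livers was not tested here. Pdk4 had 23.9 and 25.5 CPM in tumours and rose over WT livers (2.27 ± 0.70, adjusted p = 0.025), while over KO livers its fold change was 1.67 ± 0.70 (adjusted p = 0.084). Plin2 had 187 and 181 CPM in tumours, lower than in each liver library, and fell over WT livers (-0.995 ± 0.29, adjusted p = 0.02). Bdh1, which fell in DKO livers, had 394 and 305 CPM in tumours (-0.11 ± 0.29 over WT livers, not called). Acot3, Acot4, Cyp4a10 and Vnn1 were not called in either comparison, with log2 fold changes over WT livers of 0.78 ± 0.83, -0.88 ± 0.44, -0.39 ± 0.80 and 0.28 ± 0.48.

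**Figure D5:**
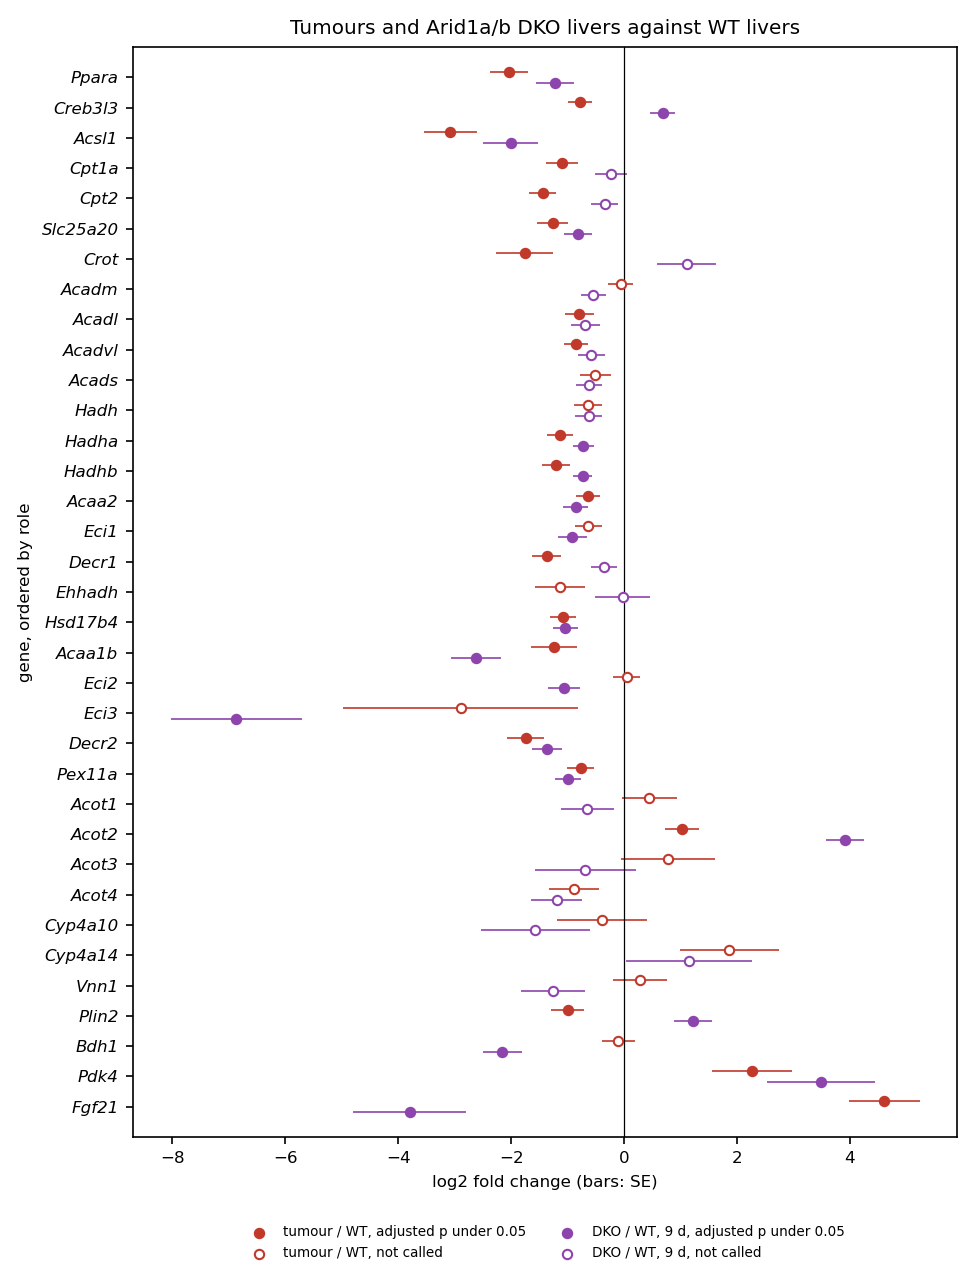
Points are log2 fold changes over WT livers for the 35 genes, in red for tumours and in purple for 9-day DKO livers, with bars of 1 SE, and filled points are called at an adjusted p under 0.05. Both points lie left of 0 for Ppara, Acsl1 and the mitochondrial genes, while Fgf21, Creb3l3 and Plin2 are called in opposite directions.

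Tumour calls rested partly on single libraries. Leaving out tumour replicate 1 lowered the number called in both comparisons, and leaving out 9-day KO replicate 1 lowered it over KO livers. No share over all genes is given for these fits. Ppara, Acsl1 and Fgf21 were called without any 1 library in both comparisons. Against 30-day livers alone, 10 of the genes described here were called over KO livers. No share over all genes is given for that setting either, so the count cannot be read as a result about these genes. Of 30 further fatty acid oxidation genes, 14 fell and 3 rose (Acsl4, Acox2 and Acot6) over WT livers, and 11 fell and 3 rose (Acot6, Etfb and Acsl4) over KO livers. Acad11 had 78.5 and 164 CPM in tumours (-2.06 ± 0.27, adjusted p = 0.00018 over WT livers). Of 6 ketone body genes 4 fell over both WT and KO livers, and Oxct1 rose over WT livers. Among those that fell were Acat1 (-2.48 over WT livers) and Bdh2 (-3.89). Of 18 further PPARalpha targets, 7 fell and 3 rose over WT livers, and 7 fell and 5 rose over KO livers. Mgll (-3.44 over WT livers), Slc27a2 (-1.92) and Apoa5 (-2.09) fell, and Cidec had 175 and 78.97 CPM in tumours (4.35 ± 0.47, adjusted p = 5.3e-05 over WT livers). Of 16 partners, 8 fell and Pparg rose over WT livers, and 5 fell and Pparg rose over KO livers. Rxra, the DNA-binding partner of PPARalpha, had 312 and 354 CPM in tumours (-0.89 ± 0.19, adjusted p = 0.0036 over WT livers), and Pparg 26.5 and 37.8 CPM (1.27 ± 0.33, adjusted p = 0.011 over WT livers). Of 9 feeding genes, 3 fell and 2 rose over WT livers, Igfbp1 most clearly at 2525 and 817 CPM in tumours (5.27 ± 0.79, adjusted p = 0.00042), and 2 fell and 1 rose over KO livers. Nr1d1 was the 1 of 13 clock genes that fell in both.

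Cell type markers moved with the tumours as well. Of 8 macrophage markers 4 were lower and 3 higher over WT livers, of 6 endothelial markers 4 lower and 1 higher, of 6 lymphocyte markers 3 lower, of 6 cholangiocyte markers 2 higher and of 3 erythroid markers 2 higher. The endothelial markers summed to 120 and 70.6 CPM in tumours, against 301 and 219 CPM in 30-day and 174 and 329 CPM in 9-day WT livers. Of 8 hepatocyte markers 1 was higher and 1 lower, with a sum of 22476 and 19299 CPM in tumours. The part of these cells in the results was not tested.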

How the data were processed

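The submitters' processing notes name fastp, STAR 2.7.3, featureCounts and the build GRCm38.p6 (mm10), with no role or order, and no source used here states the annotation release or strand setting. The whole-number counts per gene were used as deposited by the authors. The normalized values, deposited by the authors as a signal, equal the counts multiplied by 1 factor per library and served for an alternative test.

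Genes passing edgeR's filterByExpr (minimum count 10) were scaled by TMM and tested with edgeR 4.0.16's quasi-likelihood F test in R 4.3.3, in 1 fit of the 14 livers (7 residual degrees of freedom) or of all 16 libraries for tumours (8). p-values were Benjamini-Hochberg adjusted over all genes tested, with a threshold of 0.05. A replicate spread of 29.3% (common biological coefficient of variation in livers) limits the precision, with 2 libraries per group. SE is the absolute log2 fold change over the square root of F. The analysis was tested on simulated data. Alternatives were RLE size factors, no low-count filter, a replicate block, DESeq2 1.42.0, limma 3.58.1 on the normalized values (pseudocount 1), other sets of libraries and leaving out each library. Scaling by library totals and a replicate block in the 30-day livers alone were added after seeing the data. Same-numbered libraries deviated together in all 6 pairs of 30-day groups (correlation 0.170 to 0.366), a pairing read from the data and not from the labels. Figures were drawn with matplotlib 3.10.9.

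The members and lists were chosen with earlier results of these data known. All 35 members are accounted for. Ppara, Cpt1a, Pdk4 and Fgf21 were followed in every comparison, with up to 8 called members of smallest p, and up to 4 genes of smallest p from each other list. Genes named beyond this were chosen after their values were seen. Values of some genes in the further lists are not reported here.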

Additional observations from a re-analysis of the deposited data

How the results depend on the processing

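Counts are of the 35 genes called. Where no share of all genes is given for a setting, its count cannot be read as a result about these 35 genes. Without the low-count filter there were 11 in KO over WT livers at 9 days (1 as reported), 7 at 30 days (0), 5 for the agonist in WT (0) and 6 in KO livers (1), 9 in KO over WT livers under the agonist (1), 9 for agonist by genotype (0), 10 and 8 for 30 over 9 days in WT and KO livers (0 each) and 2 for genotype by time (0). DESeq2 gave 3, 1, 3 (agonist in KO livers), 4 (KO over WT under the agonist), 1 (agonist by genotype), 4 and 3 (30 over 9 days in WT and KO livers); the first 2 are KO over WT livers at 9 and 30 days. Over all 21 same-numbered pairs of liver groups the correlation of deviations ran from -0.0779 to 0.366, with 11 over 0.1, so the numbers do not pair all livers. With the replicate block over all livers there were 2 calls in KO over WT livers at 9 days, 3 under the agonist and 1 for agonist by genotype. The block in the 30-day livers alone gave 3 in KO over WT livers under the agonist and left the other counts of 30-day livers as reported. Library totals gave 12 in DKO over WT livers (19 as reported). Fitting only the libraries compared gave 3 in KO over WT livers at 9 days, 0 for the agonist in KO livers and 2 in KO over WT livers under the agonist, and fitting all 16 gave 0 at 9 days. With 9-day WT livers as WT vehicle there was 1 call each for the agonist in WT livers and agonist by genotype. Tumours over 30-day KO livers alone gave 10 (17). Leaving out 1 library gave 0 to 0 in KO over WT livers at 9 days, 0 to 2 at 30 days, 5 to 13 in DKO over WT, 3 to 8 in DKO over KO, 1 to 2 for the agonist in KO livers, 7 to 18 in tumours over KO and 12 to 22 over WT livers. Signs were compared for the followed genes and up to 8 called genes of smallest p in each comparison. None changed sign where it was called as reported or under the alternative. Sign changes of genes called in neither were not counted, and a count of calls has no sign to reverse. The median of the 35 does change sign with library totals. It goes to 0.11 in DKO over KO livers (-0.34 as reported) and to 0.17 in KO over WT livers under the agonist (-0.05). Of the counts under alternatives 130 stayed within 1.5 times, 26 were higher and 17 lower. The cause of these shifts was not tested. With 2 libraries per group and 7569780 counts in the shallowest library, depth and replication limit what could be called.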
